A study of Mus musculus with 62 samples.

Results

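Single tumour cells that held much RNA were set against cells that held little. The cells were KPC1199-EGFP, a mouse pancreatic cancer line on the C57BL/6 background that expresses EGFP, grown untreated as 1 adherent culture and taken at passage 9. They were brought into suspension with trypsin, caught singly on a Fluidigm C1 chip and amplified there, and Nextera XT was used to make 62 libraries, each from 1 cell. ERCC spike-ins, synthetic control RNAs with 65 rows in the table, served as the yardstick of RNA amount. RNA content was the sum of counts over gene rows divided by the sum over spike-in rows. Of the 62 libraries, 50 had a spike-in share under 20% of all counts, and both ends were chosen by RNA content among these. The 12 highest are called RNA-rich and the 12 lowest RNA-poor, with 26 libraries between them and 12 left out. Nothing in the files records whether a cell was intact, so the names describe the ratio alone.

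A proliferating cell roughly doubles its contents between divisions, and transcript amount generally grows with cell volume and with progress through the cycle. Genes of DNA replication are transcribed mainly in late G1 and S phase. Genes of chromosome condensation, the spindle and cytokinesis peak in G2 and M phase. Their promoters often carry CCAAT boxes and the cell cycle genes homology region, and the DREAM complex represses them earlier in the cycle. Ribosomal protein and respiratory chain genes are expressed in all cells and generally scale with cell size.

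The libraries come from 1 culture and cells are not replicates, so no p-value, standard error or test between cells was computed. A gene is called higher or lower where its mean log2(CPM + 1) over the 12 RNA-rich libraries differs by 1 or more from that over the 12 RNA-poor ones. CPM scales each gene's count to a fixed total of gene counts per library, so it is a share of the library's gene counts and not an amount per cell.

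RNA content ran from 241.3 to 524.0 gene counts per spike-in count in the RNA-rich libraries, with a median of 313.0. It ran from 53.6 to 114.3 in the RNA-poor libraries, with a median of 78.8, and the ratio of the medians was 3.97. The library just outside the RNA-rich end had 240.0 against 241.3 just inside, and the one just outside the RNA-poor end had 115.3 against 114.3 just inside. The ranked values showed no gap at either limit. The RNA-rich libraries were numbers 2, 20, 25, 26, 28, 31, 33, 38, 39, 42, 45 and 49, and the RNA-poor ones 5, 14, 17, 19, 29, 30, 32, 37, 41, 46, 52 and 59. The ends differed in spike-in counts rather than in gene counts. The median sum of spike-in counts was 24510.5 in RNA-rich and 104060 in RNA-poor libraries, 4.25 times higher in the latter. The median sum of gene counts was 6921831 and 8001583, a ratio of 0.865. When RNA content was computed from 33 of the 65 spike-in rows, 11 RNA-rich and 11 RNA-poor libraries came out at the same ends, and with the other 32 rows 12 and 11 did. The share of spike-in counts also depends on how much spike-in each reaction received, and its part in the ratio was not tested. RNA-rich libraries came from 6 of the 8 blocks of 12 consecutive label numbers and RNA-poor libraries from all 8.

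More genes were detected in RNA-rich libraries. Between 9512 and 11068 genes had a count above 0 in the RNA-rich libraries (median 10349), and between 6832 and 9044 in the RNA-poor ones (median 8156.5). The ranges did not overlap, and the 26 libraries between the ends had a median of 8780.5. Thinned to 2000000 gene counts each, the medians were 9810.5 and 7479 genes, and the ranges, 8803 to 10650 and 6220 to 8502, again did not overlap. Spearman's rho between RNA content and detected genes was 0.91 over the 50 libraries and 0.79 over the 26 between the ends. Both measures come from the same library, so these are descriptions. The plot of RNA content and detected genes shows the gradient.

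**Figure D1:**
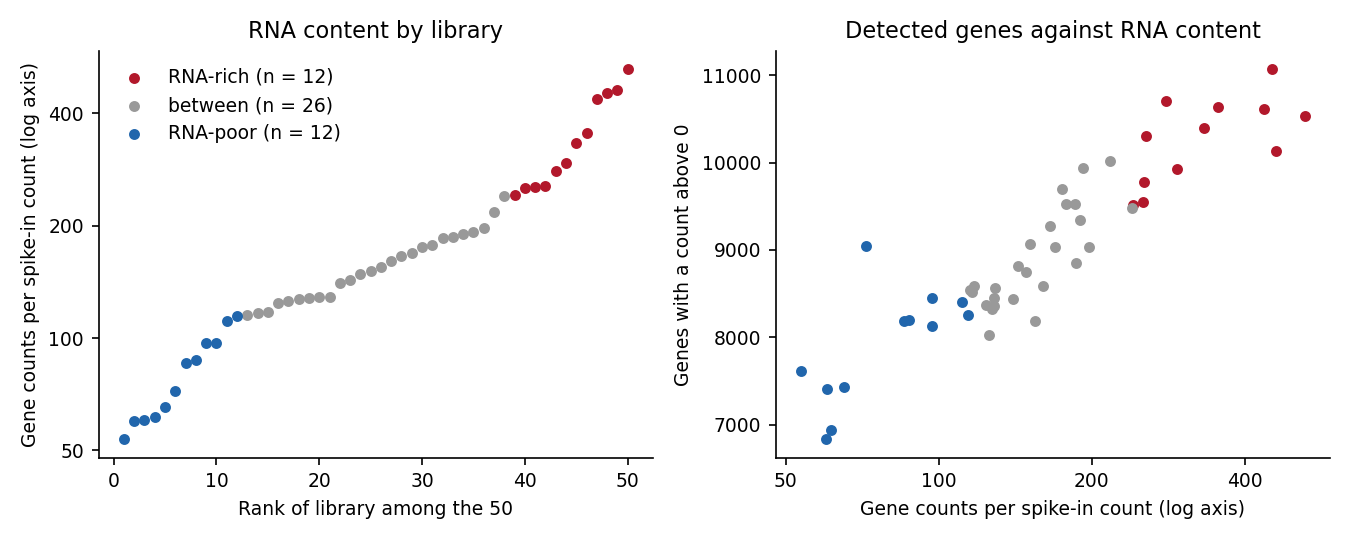
Left, RNA content (gene counts per spike-in count, log axis) of the 50 libraries in rank order; right, genes with a count above 0 against RNA content (log axis). Each point is 1 library; the 12 RNA-rich libraries all lie at 9512 detected genes or more and the 12 RNA-poor libraries all at 9044 or fewer.

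Of the 8 markers listed for the duct-like tumour line, Krt8, Krt18, Krt19, Krt7, Cdh1, Spp1 and Muc1 were above 0 in 12 of 12 libraries at each end, and Epcam in 3 RNA-rich and 8 RNA-poor libraries. Of 10 islet markers listed only 4 had a row, and these summed to at most 0.284 CPM in RNA-rich and 0.412 CPM in RNA-poor libraries. The defining genes Pecam1 and Cdh5 of endothelium and Ptprc of leukocytes were at 0 in all 24 libraries. The immune list reached medians of 105 CPM in RNA-rich and 89.2 CPM in RNA-poor libraries. Nearly all of it was Cd14, the co-receptor for lipopolysaccharide, with medians of 104.7 and 88.8 CPM. Acinar sums, over the 7 of 15 listed genes that had a row, had medians of 4.41 and 0.132 CPM and ran up to 76.8 and 20.1 CPM. Endothelial sums had medians of 0 and 15.6 CPM and ran up to 23.7 and 215 CPM, the latter all from Egfl7, a secreted factor. The part of these transcripts in the differences below was not tested. In the 2 remaining lists, fibroblast and red blood cell, sums did not exceed 1.68 and 8.64 CPM in RNA-rich libraries, or 1.66 and 23.1 CPM in RNA-poor ones. Libraries 17 and 19, both RNA-poor, stood apart from the other 10 RNA-poor libraries. Their mean level over the G2 and M phase genes was 1.86 and 1.35 on the log2(CPM + 1) scale, and over the S phase genes 1.54 and 1.87. Counts for the gene lists are given with and without them. Over all genes tested the median difference was 0.74 with them and 0.59 without. All 30 genes of largest difference in either direction stayed past the fold without them, and other named genes that did not are given both ways.

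Mitotic genes made up the most marked difference between the ends. Because the promoters of these genes share sequence features, 3 of them are shown first. They belong to Ckap2l, which encodes a spindle protein, Prc1, which encodes the bundler of the midzone microtubules, and Kif2c, a kinesin that depolymerises microtubules. All 3 are among the 15 genes of largest positive difference. Each sequence is the RefSeq window from 250 bases before to 50 bases after the gene's start, in build GRCm38.p6, read 5′ to 3′ on the gene's strand. The windows are chr2:129297163-129297462 on the minus strand for Ckap2l, chr7:80294201-80294500 on the plus strand for Prc1, and chr4:117178723-117179022 on the minus strand for Kif2c. The counts were made for build mm9 and no coordinates were joined to them. Capitals mark CCAAT or its reverse complement ATTGG, and TTTGAA or its reverse complement TTCAAA, the core of the cell cycle genes homology region.
Ckap2l: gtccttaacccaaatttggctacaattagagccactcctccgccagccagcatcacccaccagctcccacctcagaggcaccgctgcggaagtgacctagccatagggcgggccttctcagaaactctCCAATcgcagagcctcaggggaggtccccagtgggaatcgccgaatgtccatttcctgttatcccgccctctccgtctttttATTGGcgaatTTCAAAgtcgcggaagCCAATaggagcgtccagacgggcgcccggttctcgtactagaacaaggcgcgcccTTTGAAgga
Prc1: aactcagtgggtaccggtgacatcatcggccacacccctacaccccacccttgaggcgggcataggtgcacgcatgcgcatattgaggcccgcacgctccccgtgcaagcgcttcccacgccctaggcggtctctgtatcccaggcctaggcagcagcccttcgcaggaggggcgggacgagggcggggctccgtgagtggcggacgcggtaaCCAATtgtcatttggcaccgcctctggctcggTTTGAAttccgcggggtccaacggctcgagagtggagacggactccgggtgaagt
Kif2c: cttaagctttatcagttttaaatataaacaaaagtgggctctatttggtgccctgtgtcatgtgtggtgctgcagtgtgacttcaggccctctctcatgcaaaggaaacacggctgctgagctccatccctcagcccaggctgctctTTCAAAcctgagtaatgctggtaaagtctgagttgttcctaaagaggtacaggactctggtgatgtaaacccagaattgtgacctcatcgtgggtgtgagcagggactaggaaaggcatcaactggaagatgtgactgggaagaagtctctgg
The Ckap2l window held 3 CCAAT and 2 TTTGAA matches counting both strands, the Prc1 window 1 of each, and the Kif2c window 1 TTTGAA match alone. Of the 58 G2 and M phase genes, 51 had a window, and 35 of these (68.6%) held TTTGAA on either strand, 39 (76.5%) CCAAT on either strand and 30 (58.8%) both. Neither motif contains the other. Among 6064 windows of all genes tested, the shares were 12.1%, 39.8% and 5.33%, and among all 27025 RefSeq windows 18.1%, 37.9% and 7.12%. S phase genes held TTTGAA in 15.8% and CCAAT in 65.8% of 38 windows. Cytosolic ribosomal protein genes held TTTGAA in 6.56% of 61. A match is a stretch of letters and was not tested as a binding site.

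The G2 and M phase list held 58 genes, all of which passed the filter on low values, and 55 of them were higher in the RNA-rich libraries and 0 lower. Over all 7756 genes tested, 3142 (40.5%) were higher and 108 (1.39%) lower, so the share for the list has to be read against a large background. The list's median difference was 3.15, against 0.74 over all genes tested and 0.40 over genes of like level. By the log2 ratio of mean CPM, which does not weight zeros as the logarithm does, 40 of the 58 were past 1 and 0 past -1, with a median of 1.36. Over all genes this measure put 634 (8.17%) past 1 and 439 (5.66%) past -1, with a median of -0.05. With libraries at 0 left out gene by gene, 44 list members were past 1 and 0 past -1, with a median of 1.64, and over the 7753 genes with a value at both ends 850 (11%) and 799 (10.3%) were. In 48 of the 58 genes, the RNA-rich library was the higher one in at least 75% of all pairs of 1 RNA-rich and 1 RNA-poor library, against 11.3% of all genes tested. Without libraries 17 and 19, 52 of the 58 were past the fold, with a median of 2.51.

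Kif18a, a kinesin that aligns chromosomes on the spindle, had the largest difference of all genes tested. Its level was 43.3 to 354 CPM in the RNA-rich libraries (median 163), and it was at 0 in 10 of the 12 RNA-poor libraries, where the highest value was 77.9 CPM. The mean log2 levels were 7.28 ± 0.86 and 0.79 ± 1.96 (SD, n = 12 each), and the RNA-rich library was the higher in 99.3% of pairs. Aurkb, the kinase of the chromosomal passenger complex, ranged from 9.39 to 418 CPM with a median of 298 in RNA-rich libraries and was above 0 in 3 of 12 RNA-poor ones, the highest at 194 CPM. The ranges overlapped for Aurkb, and its difference was 5.85. Ckap2l ranged from 48.4 to 622 CPM (median 356) in RNA-rich and from 0 to 245 CPM (median 0.233) in RNA-poor libraries, a difference of 5.72. Prc1 was detected more widely, in 12 and 10 libraries. It ranged from 32.2 to 1273 CPM (median 295) in RNA-rich and from 0 to 135 CPM (median 7.84) in RNA-poor libraries, with a difference of 4.94. Kif2c ranged from 2.98 to 179 CPM (median 74.1) in RNA-rich libraries and was above 0 in 3 RNA-poor ones.

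The remaining genes of this kind among the 15 largest were Cenpi, a centromere protein, with a difference of 5.52, Mastl, the Greatwall kinase that holds PP2A-B55 inactive in mitosis, with 5.08, and Depdc1a with 4.84. Cdc25c, the phosphatase that activates Cdk1, followed with 4.78 and the chromokinesin Kif4 with 4.69. Mastl was above 0 in 11 RNA-rich and 2 RNA-poor libraries, and its highest RNA-poor value was 4.82 CPM. Fancb of the Fanconi anaemia core complex, a DNA repair complex, had a difference of 4.70.

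The commoner mitotic transcripts differed less in detection and still differed in level. Ccnb1, cyclin B1, the partner of Cdk1 at mitotic entry, ranged from 115 to 2684 CPM (median 937) in RNA-rich and from 0 to 648 CPM (median 73.6) in RNA-poor libraries, a difference of 3.87. Ccna2, cyclin A2, had medians of 624 and 148 CPM. Ube2c, the ubiquitin-conjugating enzyme of the anaphase-promoting complex, and Top2a, the topoisomerase that untangles sister chromatids, were named after their values were seen. Ube2c had medians of 1215 and 134 CPM, and Top2a 359 and 17.7 CPM, and each differed by 4.50 on the log2 scale. Cks1b, a small Cdk-binding subunit, was above 0 in all 24 libraries. It ranged from 876 to 1534 CPM in RNA-rich and from 94.5 to 1145 CPM in RNA-poor libraries, with a difference of 1.11, or 0.89 without libraries 17 and 19, and an excess in 93.8% of pairs. The 3 members not past the fold were Hjurp, the loader of the centromeric histone, at 0.31, Tmpo, a nuclear envelope protein, at 0.40 and Hmgb2, a chromatin protein, at 0.85.

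**Figure D2:**
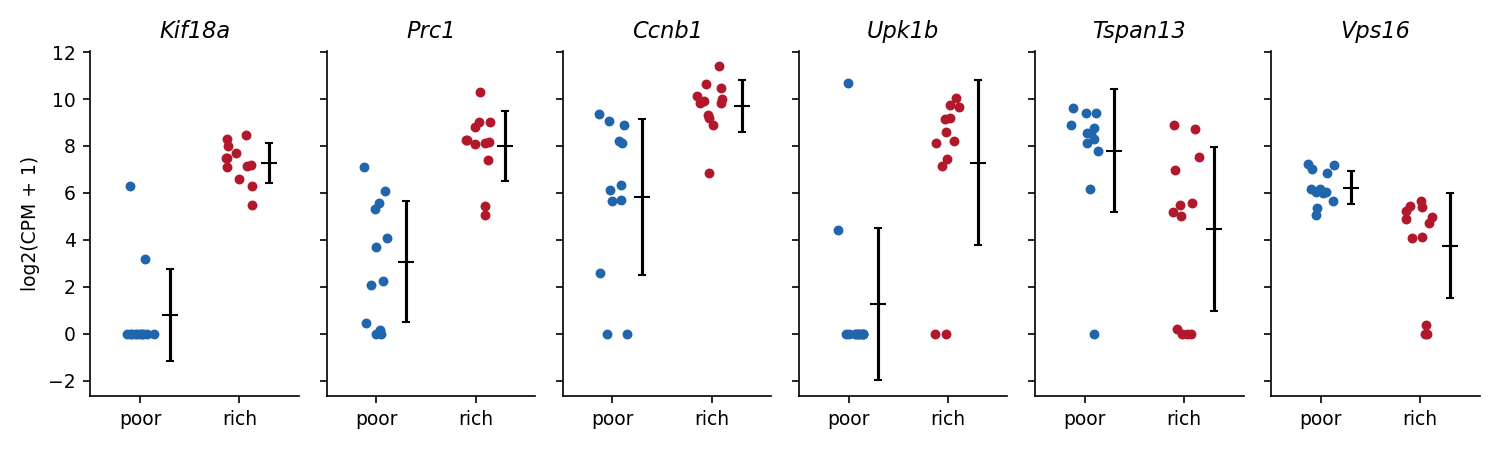
log2(CPM + 1) of 6 genes in the 12 RNA-poor (blue) and 12 RNA-rich (red) libraries; points are libraries and bars are mean ± SD. Kif18a, Prc1, Ccnb1 and Upk1b were higher in RNA-rich libraries, and Tspan13 and Vps16 lower; RNA-poor libraries hold many zeros for Kif18a and Upk1b.

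As a group level, the mean log2(CPM + 1) of the 58 genes ranged from 5.21 to 8.22 in RNA-rich libraries, with a median of 7.79. It ranged from 1.35 to 6.75 in RNA-poor libraries, with a median of 4.95. In 10 of the 12 RNA-rich libraries the level was above that of every RNA-poor library, and the RNA-rich library was higher in 95.1% of pairs. The exceptions were libraries 38 and 49, at 5.21 and 6.69. Library 38 had at the same time the highest S phase level of the RNA-rich libraries, 6.92. The genes took 0.624% to 2.78% of gene counts in RNA-rich libraries (median 1.97%) and 0.144% to 1.53% in RNA-poor ones (median 0.686%), a ratio of medians of 2.88. Per spike-in count, the quantity that chose the ends, the ratio of medians was 11.6.

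The 26 libraries between the ends, which the choice of the ends did not use, gave a weaker gradient. Spearman's rho of RNA content with the level of the 58 genes was 0.22 over these 26, against 0.68 over all 50. For single genes, 42 of the 58 (72.4%) had a rho above 0 between the ends, with a median of 0.09, against 4429 (57.1%) of all genes tested. Over every gene higher at the RNA-rich end, 1832 (58.3%) had a rho above 0 between the ends, close to the share of all genes. Of the 108 genes lower at the RNA-rich end, 35 (32.4%) had a rho below 0, against 42.9% of all genes. The ends thus had little counterpart, gene by gene, in the order of the libraries between them. RNA content spans a narrower range there, from 115.3 to 240.0.

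**Figure D3:**
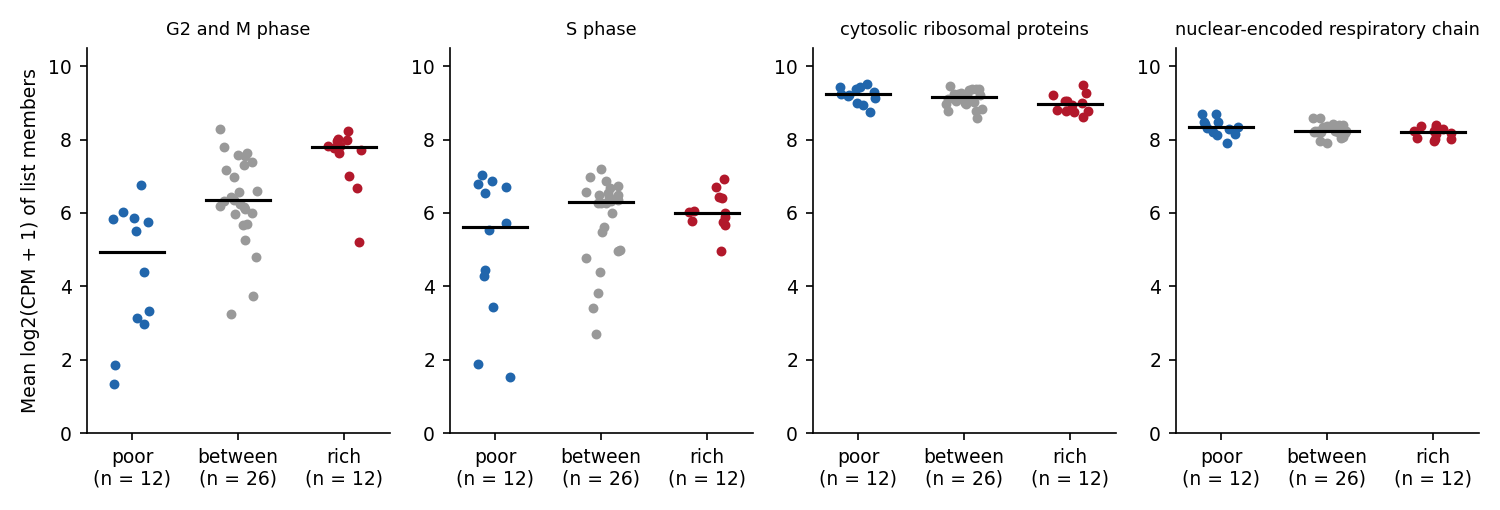
Mean log2(CPM + 1) over the tested members of 4 gene lists in each library, by RNA content class; points are libraries and the line is the median. The G2 and M phase level had medians of 4.95 in RNA-poor and 7.79 in RNA-rich libraries, and the ribosomal protein and respiratory chain levels lay in narrow, overlapping ranges.

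S phase genes differed less between the ends than the mitotic genes. Of 51 tested, of 52 listed, 29 were higher (56.9%, against 40.5% of all genes) and 1 lower, against 1.39% of all genes. The median difference was 1.08 against 0.59 over genes of like level. Without libraries 17 and 19 only 8 of the 51 were higher, against 2774 of all 7756 genes. The list's median was then 0.34, against 0.59 over all genes tested. By the log2 ratio of mean CPM, 1 was past 1 and 3 past -1, with a median of -0.14. With libraries at 0 left out the median was -0.23. The list took 0.640% of gene counts in the median RNA-rich library and 0.636% in the median RNA-poor one, and the RNA-rich library was the higher in 59.7% of pairs. Pcna, the sliding clamp of DNA polymerase, ranged from 293 to 1018 CPM in RNA-rich and from 131 to 1642 CPM in RNA-poor libraries, with a difference of -0.10. The RNA-poor range of Pcna enclosed the RNA-rich one. Rrm2, the small subunit of ribonucleotide reductase, had medians of 577 and 332 CPM and a difference of 1.95, or 0.56 without libraries 17 and 19. The 1 lower member was Ccne2, cyclin E2, a G1/S cyclin, at -1.11. Between the ends, 42 of the 51 had a rho above 0 (82.4%), against 57.1% of all genes. There the rho of RNA content with the list's level was 0.32, against 0.22 for the mitotic list.

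Among cyclins, Cdks and their inhibitors, 13 of 23 tested genes were higher (56.5%, against 40.5% of all genes) and 2 lower, against 1.39% of all genes. The median was 1.21 against 0.65 over genes of like level. Without libraries 17 and 19, 11 were higher and 2 lower. The list's median was then 0.80, against 0.59 over all genes tested. Ccnb1 and Ccna2 of the list were described above. The lower members were Ccne2 and Ccnd2. Ccnd2, cyclin D2 of the G1 phase, ranged from 16.7 to 462 CPM (median 157) in RNA-rich and from 0 to 1815 CPM (median 481) in RNA-poor libraries. Ccnd1, cyclin D1, had medians of 193 and 190 CPM, so the D cyclins did not differ alike. The inhibitor Cdkn2d (p19INK4d) was higher by 2.71, with medians of 50.6 and 23.7 CPM. Ccne2, Ccnd2 and Cdkn2d were named after their values were seen. Replication-dependent histone genes could not be described as a group, since 3 of 57 rows passed the filter on low values. Hist1h2ao and Hist1h2bc, which share sequence with many copies, differed by 0.23 and -0.30, the former by -0.05 without libraries 17 and 19.

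Ribosomal protein genes took a slightly smaller share in RNA-rich cells. Of 86 cytosolic ribosomal protein rows 82 were tested, and all 82 were above 0 in each of the 12 RNA-rich libraries. None was past the fold in either direction. Of the 82, 81 were in the highest of 5 equal classes of genes by mean level, where 14.9% of 1551 genes were higher, 0.709% lower and the median difference was 0.12. Rpl13a alone was lower, at -1.02, without libraries 17 and 19. The differences ran from -0.89 to 0.35 with a median of -0.24, and 71 of 82 (86.6%) were below 0. The highest class ran from 143.97 to 14879 CPM, so it matches level only coarsely. Abundant genes of other lists went both ways. Eef1a1, Gapdh and Hsp90ab1 differed by -0.31, -0.30 and -0.32, and Eif5a, Ldha and Hnrnpk by 0.21, 0.27 and 0.24. Whether the shift of the ribosomal list is shared by other genes of the same abundance was not tested. In 28 of the 82 (34.1%) the RNA-rich library was the higher in at most 25% of pairs, against 2.67% of all genes. Rps12 ranged from 93.1 to 211 CPM (median 169) in RNA-rich and from 183 to 415 CPM (median 260) in RNA-poor libraries, with a difference of -0.70 and an excess in 5.56% of pairs. Rpl13a had medians of 288 and 581 CPM and a difference of -0.89. Rps2 had medians of 2063 and 2648 CPM, with log2 levels of 11.01 ± 0.18 and 11.36 ± 0.27. The ranges of Rps2 overlapped, and those of Rplp0 lay close together, with medians of 2048 and 1719 CPM and a difference of 0.12. The 86 rows took 4.16% to 7.04% of gene counts in RNA-rich (median 4.96%) and 4.87% to 7.20% in RNA-poor libraries (median 6.02%), a ratio of 0.824. Per spike-in count, the quantity that chose the ends, the ratio was 4.18. Ribosomal protein genes have many processed pseudogenes that can share reads with them, so single members are uncertain.

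Nuclear-encoded respiratory chain genes also lay slightly below 0. Of 77 tested, 1 was higher and 0 lower, against 40.5% and 1.39% of all genes. All 77 had a mean CPM of at least 100, and of all 2179 such genes 391 were higher and 13 lower. The list's median difference was -0.22 against 0.13 over genes of like level, and 57 of its members (74%) were below 0. The level classes are wide, and whether other genes of the same abundance share this shift was not tested. Atp5e, the epsilon subunit of ATP synthase, ranged from 87.7 to 247 CPM (median 134) in RNA-rich and from 158 to 450 CPM (median 271) in RNA-poor libraries, with a difference of -0.92. Atp5b, the catalytic beta subunit, had medians of 1572 and 1771 CPM and a difference of -0.23. The higher member was Uqcrc2, a core subunit of complex III, at 1.09, or 0.55 without libraries 17 and 19, which left 0 higher. The list took 2.78% of gene counts in the median RNA-rich and 3.17% in the median RNA-poor library. Mitochondrial ribosomal proteins had 7 of 74 genes higher (9.46%, against 40.5% of all genes) and 1, Mrpl36, lower, with a median of 0.05 against 0.48 over genes of like level. The counts were 6 and 1 and the median -0.07 without libraries 17 and 19.

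The excess of higher genes over the whole table changed with the weight given to zeros, and its cause was not tested. Of the genes tested, 5462 were above 0 in all 12 RNA-rich libraries and 2472 in all 12 RNA-poor ones. In 5 equal classes of genes by mean level, from low to high, the median difference was 0.97, 1.18, 0.98, 0.61 and 0.12. When libraries at 0 were left out, 850 genes were past 1 and 799 past -1, and the median was -0.01. That setting compares detected values only. By the difference of mean log2(CPM + 1), the ratio of mean CPM and this setting together, 381 genes were higher and 83 lower. By the difference of medians, zeros included, 2787 genes were higher and 277 lower, with a median of 0.37. Values at 0 in a single-cell library can come from a transcript that was not there or was not captured, and these cannot be told apart here.

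Groups of the gene expression machinery did not differ alike. Percentages in brackets are shares of a list that were higher, beside 40.5% of all genes. Splicing factors had 3 of 52 genes higher (Sf3b3, Srsf4 and Prpf8), against 40.5% of all genes, and a median of 0.07 against 0.36 over genes of like level. At a mean CPM of at least 100, 1 of 41 splicing genes was higher, against 391 of all 2179 genes. The splicing median was -0.13 without libraries 17 and 19 and -0.15 within blocks of label numbers. Translation factors had 7 of 45 higher (15.6%) and 0 lower, with a median of 0.15 against 0.27 at like level. Without libraries 17 and 19, 2 were higher and the median was -0.07. Among them Eef1a1, which delivers aminoacyl-tRNA to the ribosome, had medians of 2432 and 3291 CPM. Aminoacyl-tRNA synthetases had 6 of 20 higher (30%), with a median of 0.71 against 0.38 at like level, led by Mars at 2.47 and Hars at 2.14. Without these libraries 6 were higher and their median was 0.16. By the log2 ratio of mean CPM over all libraries of both ends, 0 synthetases were past 1, with a median of -0.11. RNA polymerase II and its general factors had 11 of 51 higher (21.6%), with a median of 0.35 against 0.62, led by the TFIID subunit Taf6 at 3.09. Without these libraries 10 were higher, with a median of 0.15. Ribosome biogenesis had 21 of 61 genes higher (34.4%) and 1, the RNA helicase Ddx21, lower, with a median of 0.56 against 0.71. Without these libraries 10 of the 61 were higher and 2 lower, with a median of 0.03. Its abundant members Npm1 and Ncl, nucleolar proteins, differed by -0.32 and -0.03. mRNA decay factors had 12 of 49 higher (24.5%) and a median of 0.64 against 0.70, and 11 and 0.35 without these libraries. Of 15 long noncoding RNAs, 2 were higher (13.3%) and 1, the RNase P RNA Rpph1, lower, with a median of 0.23 against 0.74. Without these libraries 3 were higher and 3 lower, with a median of -0.18. Malat1, a nuclear RNA, had medians of 4466 and 3248 CPM, which differed by 0.42.

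Among metabolic lists, glycolysis had 1 of 18 genes higher, the phosphofructokinase gene Pfkp at 2.66, and 1 lower, Aldoc, an aldolase gene, at -1.32, against 40.5% and 1.39% of all genes. At a mean CPM of at least 100, 0 of 11 glycolysis genes were higher and 1 lower, against 391 and 13 of all 2179 genes. The glycolysis median was 0.13 against 0.42 at like level. Within blocks of label numbers it was -0.12, against 0.60 over all genes tested. With libraries 17 and 19 left out, 3 were higher and 0 lower, and Aldoc stood at -0.65. Gapdh differed by -0.30. Cholesterol synthesis had 7 of 25 higher (28%, against 40.5% of all genes) and 0 lower, with a median of 0.73 against 0.52 at like level. By the ratio of mean CPM the median was 0.06, and within blocks 2 were higher and 5 lower, with a median of -0.14, so the list's direction turned there. Leaving out libraries 17 and 19 gave 5 higher and 1 lower, with a median of 0.47. Fdps, which makes farnesyl diphosphate, had medians of 1303 and 1535 CPM and a difference of 0.03. Between the ends, 24 of these 25 genes had a rho above 0 (96%) with a median rho of 0.29, against 57.1% of all genes. The 25 genes share the depth and detection of each library, so their values are not independent. Fatty acid synthesis had 7 of 15 genes higher (46.7%, against 40.5% of all genes), with a median of 0.41 against 0.63 at like level. Without these libraries 3 were higher and 1 lower, with a median of 0.48 against 0.59 over all genes tested. Its desaturase Scd2 stood at 9.02 ± 0.76 in RNA-rich and 9.90 ± 0.50 in RNA-poor libraries, a difference of -0.88. Nucleotide and one-carbon synthesis had 6 of 28 higher (21.4%, against 40.5% of all genes) with a median of 0.42 against 0.47 at like level. It had 3 higher and 1 lower without these libraries, with a median of 0.16. Its median within blocks was -0.09.

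Stress lists differed in how many genes were higher. Percentages in brackets are shares of a list that were higher, beside 40.5% of all genes. Proteasome subunits had 3 of 35 higher, or 2 without libraries 17 and 19, and heat shock and cytosolic chaperones 3 of 23, or 1 without. Their medians were 0.15 against 0.18 and 0.09 against 0.30 at like level, and that of the chaperones was -0.11 without these libraries. Endoplasmic reticulum chaperones had 5 of 20 higher (25%), or 3 without, and a median of 0.11 against 0.37. Hypoxia response genes had 7 of 17 higher (41.2%, against 40.5% of all genes) and 1, Ndrg1, lower, or 7 and 0 without these libraries. Their median was 0.53 against 0.77 at like level. It was 0.87 without these libraries and 1.11 within blocks, against 0.59 and 0.60 over all genes tested. ATF4 targets had 6 of 13 higher (46.2%), or 5 without, and a median of 0.90 against 0.47. The ATF4 list's median was 0.68 without these libraries and 0.28 within blocks. In p53 targets, 2 of 13 were higher (15.4%), Mdm2 and Zmat3, and 1, Tigar, lower, or 1 and 1 without. Their median was 0.34 against 0.88 at like level, and -0.56 by the ratio of mean CPM. Apoptosis and autophagy genes had 11 of 25 higher (44%, near the 40.5% of all genes), or 12 without these libraries, and a median of 0.79 against 0.68. Xiap, an inhibitor of caspases, led them at 2.53.

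Signalling lists were mixed. Immediate early genes had 7 of 21 higher (33.3%, against 40.5% of all genes) and 1, Fos, lower at -1.05, with the same counts without libraries 17 and 19 and a median of 0.49 against 0.59 at like level. Cyr61, a matricellular target of YAP, ranged from 0.459 to 1947 CPM in RNA-rich and from 0 to 1355 CPM in RNA-poor libraries, so the ranges overlapped almost fully at a difference of 3.14. RAS-MAPK output genes had 6 of 15 higher (40%, as over all genes) with a median of 0.48 against 0.72 at like level, among them the feedback inhibitor Spry1 at 2.62 and the AP-1 subunit Fosl1 at 2.28. In that list 4 of the 15 were higher, with a median of 0.12, without libraries 17 and 19. Dusp6, the phosphatase of ERK, differed by -0.23. Actin cytoskeleton genes had 2 of 27 higher (7.41%, against 40.5% of all genes) and 1, vinculin (Vcl), lower at -1.08. Without these libraries 2 were higher and 0 lower, and Vcl stood at -0.79. Their median was 0.08 against 0.32 at like level, and within blocks it was -0.07. Tmsb4x, the actin-binding peptide thymosin beta 4, lay at the limit with a difference of 1.00 and medians of 8244 and 3760 CPM. Lysosome genes had 10 of 25 higher (40%, as over all genes) and 1 lower, the protease Ctsh at -2.30, or 9 and 1 without libraries 17 and 19, with a median of 0.66 against 0.56 at like level. The tetraspanin Cd63 had medians of 540 and 302 CPM, and in the libraries between the ends its rho with RNA content was -0.57.

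Several of the genes of largest difference encode surface or secreted proteins. Upk1b, a uroplakin tetraspanin of urothelium, came next after Kif18a, with a difference of 6.02. It was above 0 in 10 RNA-rich libraries, with a median of 340 and a highest value of 1069 CPM, and in 2 RNA-poor ones, of which 1 reached 1656 CPM. Ly6c1, a Ly6 surface protein, was above 0 in 11 and 4 libraries with a difference of 5.20, and Ly6a, named after its values were seen, had medians of 1744 and 92.2 CPM. Ly6 genes are close paralogues, so reads may be divided among them. Plat, tissue plasminogen activator, was above 0 in 11 and 4 libraries with medians of 308 and 0 CPM. Rnf130, a membrane-bound ubiquitin ligase, had a median of 63.2 CPM in RNA-rich libraries and was above 0 in 3 RNA-poor ones. Between the ends, rho was -0.19 for Ly6c1 and -0.26 for Rnf130. The list of secreted and injury-associated genes had 7 of 11 tested members higher (63.6%, against 40.5% of all genes) and 0 lower, with a median of 1.70 against 0.32 at like level. The count was also 7 without libraries 17 and 19, and by the ratio of mean CPM it was 1 of 11. Spp1, osteopontin, ranged from 4898 to 34304 CPM in RNA-rich and from 147 to 86975 CPM in RNA-poor libraries. The range of Spp1 in the RNA-poor libraries enclosed that in the RNA-rich ones.

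Epithelial genes were divided. Of 17 tested, 4 were higher (23.5%, against 40.5% of all genes), namely Prom1, Cldn3, Ocln and Tjp1. The 3 lower, against 1.39% of all genes, were Cldn7, Elf3 and Muc1. The list's median was -0.39 against 0.44 over genes of like level. The counts were 4 and 2 without libraries 17 and 19, with Muc1 at -0.80 and a median of -0.22. Prom1, a protein of membrane protrusions, was above 0 in 10 and 2 libraries, with a difference of 4.17. Cldn3 and Cldn7, both claudins of the tight junction, went opposite ways. Cldn3 ranged from 106 to 533 CPM (median 190) in RNA-rich and from 7.96 to 207 CPM (median 69.3) in RNA-poor libraries. Cldn7 ranged from 0 to 94.2 CPM (median 17.1) and from 0 to 596 CPM (median 118). Muc1, a transmembrane mucin, had medians of 124 and 410 CPM, and Elf3, an epithelial ETS factor, 66.2 and 144.1 CPM. Cdh1, E-cadherin, had medians of 61.7 and 145 CPM and a difference of -0.60. Epcam, the adhesion protein used to sort epithelial cells, did not pass the filter on low values. It was above 0 in 3 RNA-rich libraries, with a highest value of 71.0 CPM, in 7 of 26 between, and in 8 RNA-poor libraries, with a highest value of 1016 CPM. Cldn7, Elf3, Muc1, Cdh1 and Epcam were named after their values were seen. With 25 libraries at each end the epithelial median was 0.07 and 0 members were lower.

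Mesenchymal genes had 6 of 14 tested members higher (42.9%, near the 40.5% of all genes) and 0 lower, or 7 and 0 without libraries 17 and 19. Their median of 0.76 lay beside 0.75 over genes of like level. Vim, vimentin, had medians of 674 and 729 CPM and a difference of 0.04. S100a4 ranged from 178 to 931 CPM (median 403) in RNA-rich and from 0 to 662 CPM (median 111) in RNA-poor libraries. Fn1, fibronectin, was above 0 in 12 and 5 libraries with a difference of 3.70, and Twist2, a transcription factor, in 10 and 3 with a difference of 3.06. Between the ends, 2 of the 14 had a rho with RNA content above 0, against 57.1% of all genes. The median rho of the 14 was -0.09, and the rho of the list's level was -0.19. The list's mean log2 level had medians of 4.24 in RNA-poor libraries, 5.28 between the ends and 5.61 in RNA-rich libraries. As a share of gene counts the list's ratio of medians was 1.20.

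Few genes were lower in RNA-rich cells by the difference of mean log2(CPM + 1). The ratio of mean CPM put 439 lower and 634 higher, and with libraries at 0 left out 799 and 850 were. Of the 108 lower by the first measure, 34 had the RNA-rich library as the higher in 25% or fewer pairs. Tspan13, a tetraspanin, had the largest such difference, -3.34. It ranged from 0 to 471 CPM (median 39.2) in RNA-rich and from 0 to 791 CPM (median 376) in RNA-poor libraries, which overlapped. Vps16, a core subunit of the HOPS and CORVET tethering complexes, had the lowest pair share of all genes tested. It ranged from 0 to 49.3 CPM (median 26.8) in RNA-rich and from 32 to 151 CPM (median 67.6) in RNA-poor libraries, and the RNA-rich library was the higher in 4.86% of pairs. Igf2bp3, an RNA-binding protein of fetal and tumour cells, was above 0 in all 24 libraries, with medians of 7.33 and 75.3 CPM. Nkx2-3, a homeobox factor, differed by -2.50, Slc35g1 by -2.27, Mllt6 by -2.22 and Lad1, a basement membrane protein, by -2.19. The GDP-fucose transporter Slc35c1 and the zinc finger gene Zfp51 differed by -1.92 and -1.91, and Epb41l4aos by -1.63. The autophagy receptor Nbr1 differed by -1.61, the nucleoside diphosphate kinases Nme3 and Nme4 by -1.58 each, the secretory GTPase Rab27b by -1.58 and the LIM protein Crip1 by -1.54. Epb41l4aos is an antisense gene, and no source used here states whether the counting used strand. Of these 15 genes, 12 had a rho with RNA content above 0 in the libraries between the ends, against 57.1% of all genes tested. That sign is opposite to the ends. The 12 values ran from 0.0072 for Mllt6 to 0.40 for Nme4, with Vps16 at 0.042 and Crip1 at 0.36. The 3 genes with a rho below 0 were Nkx2-3, Slc35c1 and Zfp51.

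**Figure D4:**
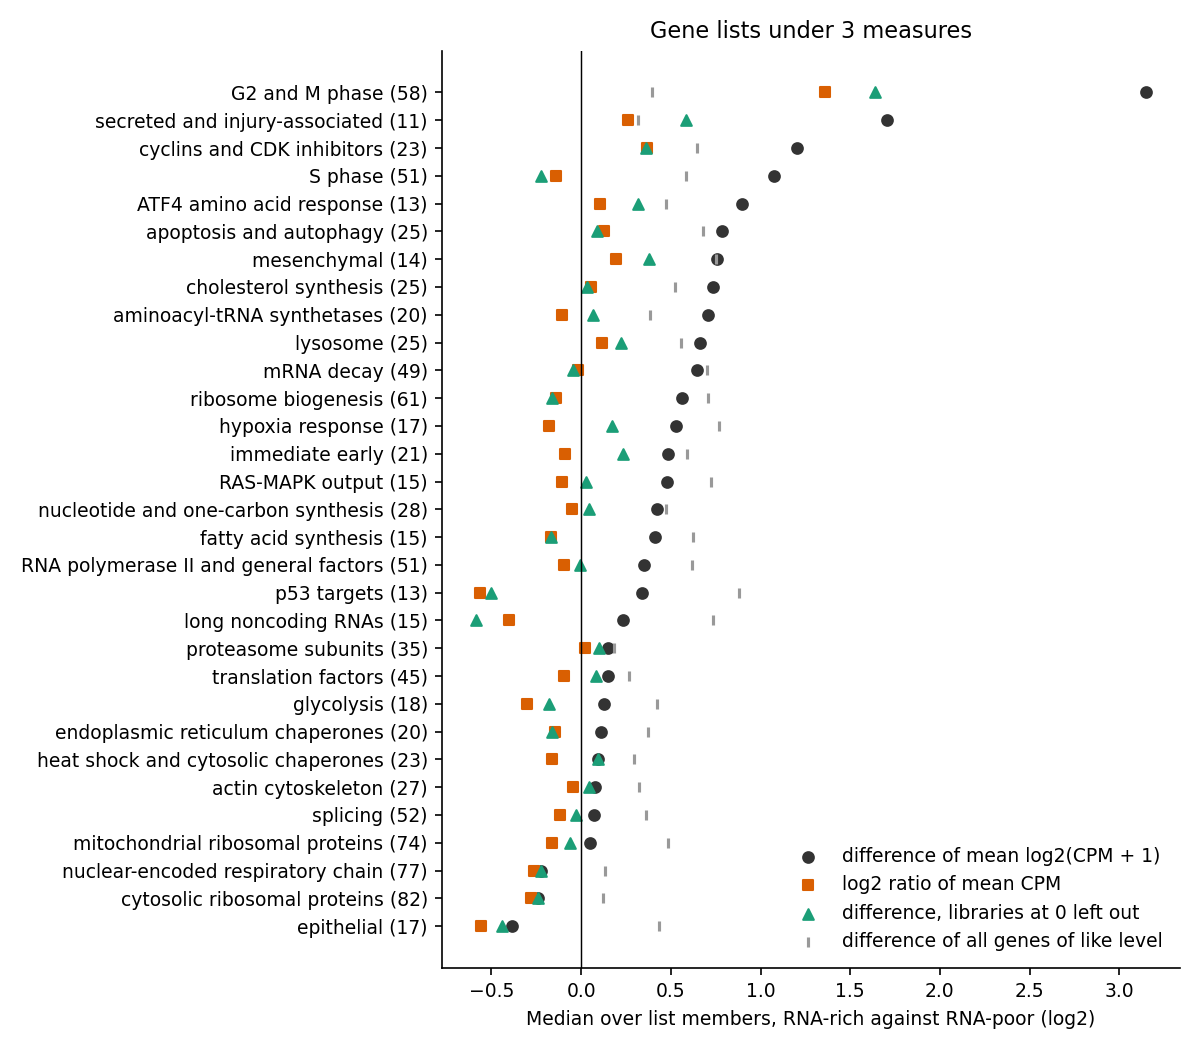
Median over the tested members of each gene list (number in brackets) of the difference between RNA-rich and RNA-poor libraries, by 3 measures on the log2 scale. Grey ticks are the mean, over list members, of the median difference of each member's level class. Of the lists drawn, which have at least 10 tested members, only G2 and M phase lies past 1 by all 3 measures, at 3.15, 1.36 and 1.64.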

How the data were processed

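The authors deposited 1 table of estimated counts by gene symbol. The submitters' processing notes name kallisto and mm9, and no source used here gives versions or annotation. Of 19177 rows, 65 were spike-ins and 19112 genes. Altered symbols were restored for 1101 rows, and 74 stayed unmatched. Gene counts per library ran from 2153895 to 12868806 in the 50 libraries, and no pair was duplicated (highest correlation of log2 levels 0.765). Counts were scaled to CPM over gene rows with a pseudocount of 1, unrounded except for thinning. The 7756 genes tested had a mean CPM of at least 10 and a count above 0 in 25 or more of the 50 libraries. No doublet caller was run, and whether a library held more than 1 cell was not tested.

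Members, the 32 program lists and 6 other-cell-type lists were chosen with earlier results of these data known. Genes of like level are those of the same class among 5 equal classes by mean CPM. The value at like level given beside a list is the mean, over its tested members, of the median difference of each member's class. Such values were computed for the main comparison only, not without libraries 17 and 19 or within blocks. Over all genes tested the median was 0.59 without these libraries and 0.60 within blocks, against 0.74 in the main comparison. Named genes were the 15 of largest difference in each direction with a pair share of at least 75% or at most 25%, and per list 2 by level and 2 by size; 2 per other cell type. Genes that this rule takes from the S phase list by size are not reported here. Computations were tested on simulated data, in which both ends had the same mean levels apart from set fold changes. The unlike detection of the real ends was not simulated. Computations used Python 3.11.15, numpy 2.4.6, pandas 2.3.3 and scipy 1.17.1. The comparison was repeated under 16 alternatives, and under 1 more, without libraries 17 and 19, chosen after seeing the data.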

Additional observations from a re-analysis of the deposited data

Results flagged for a closer look

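The 12 libraries whose spike-in share reached 20% entered no comparison. Among them library 43 had counts above 0 for 9041 genes, and the next highest had 5966. Its spike-in share was 71.1%, its RNA content 0.407 gene counts per spike-in count and its gene counts 389192. Detected genes in the RNA-poor libraries ran from 6832 to 9044, so a library below both ends in RNA content reached the top of that range.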

How the results depend on the processing

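The count of higher genes (3142) was 802 with a pseudocount of 10, 391 with a mean CPM of at least 100, 634 by the log2 ratio of mean CPM, 850 with libraries at 0 left out and 1841 with 25 libraries at each end. The count of lower genes (108) was 39 with a pseudocount of 10, 198 with no filter, 13 with a mean CPM of at least 100, 439 by the ratio of mean CPM, 277 by the difference of medians, 799 with libraries at 0 left out, 21 with 25 at each end and 223 within blocks of label numbers. Higher and lower genes thus stood at 634 and 439 by the ratio of mean CPM and at 850 and 799 with libraries at 0 left out, settings that by construction give zeros less or no weight. Without libraries 17 and 19 the counts were 2774 and 148. With median-of-ratios size factors they were 3030 and 101. The S phase median changed sign to -0.14 by the ratio of mean CPM, to -0.0081 by medians and to -0.23 with zeros left out. Lad1, Nme4 and Crip1 changed sign with 25 at each end, to 0.19, 0.058 and 0.15. The cause of the other changes was not tested. Of 544 list values, 476 kept their sign, as did 485 of 488 gene values. Within blocks of label numbers, which gave 23 pairs of an RNA-rich and an RNA-poor library, the cholesterol synthesis median was -0.14. With 1 culture, differences describe these cells. The medians of detected genes differed by 2192.5, and by 2331.5 after thinning.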
